A study of Mus musculus with 162 samples.

Results

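These results describe the mouse olfactory bulb late in a fast. They compare 6 libraries from mice without food for 18 h or 22 h (the late libraries) with 6 libraries from mice without food for 0 h or 2 h (the fed libraries). The 12 libraries were taken by the organ and fasting time in their titles, all genes being used, out of 18 olfactory bulb (OB) libraries and 162 libraries in the series. The study profiled mRNA in 9 organs of wild-type C57BL/6J mice at 6 fasting times, with 3 mice at each time. All mice were adult males of 8 to 9 weeks, housed in groups with water throughout. The 0 h mice ate freely, food was taken from the others at different clock times, and all were killed at the same time early in the dark phase. Each library came from 1 mouse, and each mouse gave all 9 organs, so that cerebellum (CBL), brainstem (BST) and brain (BRN, telencephalon and diencephalon) of the same mice are at hand.

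The olfactory bulb receives the axons of sensory neurons in the nose and passes their signals on through mitral and tufted cells. Granule and periglomerular interneurons inhibit those cells, and new interneurons arrive throughout life as migrating neuroblasts. Hunger and hormones of feeding act on the bulb and on the sense of smell, which an animal uses to find food.

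A level is given here as normalized CPM, which is the count scaled to a common library size (CPM), with the library total multiplied by its TMM factor over the 18 OB libraries. Markers of the bulb were present in all OB libraries. In the fed libraries the means were 664 normalized CPM for Cdhr1, 158 for Eomes and 40.5 for Tbx21, genes of mitral and tufted cells. They were 868 for Synpr, 831 for Meis2 and 308 for Tshz1, genes of granule cells. Interneurons and their precursors were seen in Calb2 (712), Th (269.8), Dlx1 (359.6) and Dcx (239), and ensheathing glia and sensory axons in Frzb (122.1) and Omp (251). None of these 12 markers passed the test of late against fed libraries, by edgeR.

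Total counts were 16719545, 11508951 and 11503120 at 0 h and 8525171, 10492336 and 11445766 at 2 h. They were 9920365, 10598100 and 8981973 at 18 h and 8224940, 14483029 and 17704828 at 22 h. Library names carry a lane code, which was L003 in all 6 fed libraries and L004 in all 6 late ones, so that the code and the fast cannot be told apart in the main comparison. The 3 libraries of 12 h carry L004 as well, and those of 8 h carry L003 (replicates 1 and 2) and L004 (replicate 3).

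Some libraries stand apart. OB 18 h replicate 1 lay at 47.7 on the first principal component of the 18 OB libraries, which held 33.7% of the variance, and the other late libraries at -5.80 to 18.1. In it, short transcripts were high against long ones. For this, each gene was taken against its mean over the 18 OB libraries, in 5 equal groups by exon length. The median of the shortest group minus that of the longest was log2 0.62 in this library. In the other 11 fed and late libraries it was -0.12 to 0.24. Immediate early genes were low in OB 18 h replicate 1 (Fos 8.17, Egr1 56.7). OB 0 h replicate 1 also had low Fos (17.7) and Egr1 (85.7). OB 0 h replicate 3 held 342 normalized CPM of Ttr, the transport protein made by the choroid plexus, against 1.05 to 8.91 in the other fed libraries, and the least Omp of the fed libraries (80.97). Counts without OB 18 h replicate 1 and OB 0 h replicate 3 are given with the results.

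Late in the fast a small set of genes changed in the bulb. The VEGF receptors Flt1 and Kdr fell, and so did Gpx6 and Cyp2a5, both known from the olfactory mucosa, the vesicular glutamate transporter Slc17a6 and the neuropeptide gene Adcyap1. Fewer genes rose, among them the receptors Chrna10 and Hrh3, the metallothionein Mt1, the cold-inducible Cirbp and the clock genes Ciart and Dbp. In all, 40 of 16742 genes tested passed an adjusted p under 0.05 by edgeR (0.239%), 11 higher (0.0657%) and 29 lower (0.173%) late. With an absolute log2 fold change over 1 as well there were 8 genes (0.0478%), all lower.

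The 11 higher genes had log2 fold changes of 0.33 to 0.96, so that none doubled. For 10 of the 11, every late library lay above every fed one, and for 24 of the 29 lower genes every late library lay below. Among all tested genes 260 were separated in this way (1.55%), 0.914% upward and 0.639% downward. An unadjusted p under 0.05 was reached by 3133 genes, and DESeq2 called 385, with 37 of the 40 among them. Leaving out 1 library at a time gave 20 to 150 called genes, and without both libraries that stand apart 91, with 35 of the 40 among them. All 40 kept their sign in each of these fits, and 15 were called in all 12 fits without 1 library: Chrna10, Hrh3, Mt1, Gpx6, Chil6, Cp, Cyp2f2, Kitl, Vmo1, Flt1, Slc17a6, Elovl7, Cd93, Chordc1 and Ptprb. With the replicate number as a block 0.699% of the genes were called, all 40 among them. A fit of all 18 OB libraries with the lane code as a term gave 0 calls by edgeR, with 1315 genes at an unadjusted p under 0.05. In that fit, the 40 genes had the same sign and a median of 1.00 times the log2 fold change given here, with 0.301 the smallest. Only the 8 h libraries carry both codes, with L004 in replicate 3 alone, so that the term rests on 1 library. The fit therefore cannot tell the code and the fast apart. DESeq2 was not run with that term.

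Gpx6, Cyp2a5 and Cyp2f2 are among the 8 genes that fell by a log2 fold change of more than 1. Gpx6 (chr13:21312125-21319624, plus strand, GRCm38), a glutathione peroxidase of the olfactory mucosa, had 1.14 to 5.36 normalized CPM (median 3.62) in the fed libraries and 0 to 0.650 (median 0.206) in the late ones (log2 fold change -3.81 ± 0.48 (SE), adjusted p 0.0036). All 6 late libraries lay below all 6 fed ones, and 1 late library, 22 h replicate 3, had no count. Pooled over libraries these were 241 against 16 counts, a ratio of 14.9 with a 95% counting interval of 9.01 to 26.5. Cyp2a5, a cytochrome P450 of olfactory mucosa and liver, lay at 5.85 to 18.02 normalized CPM (median 11.6) in the fed libraries and 0.443 to 4.64 (median 2.09) in the late ones (log2 fold change -2.40 ± 0.37 (SE), adjusted p 0.0197). Its groups did not overlap either, and the lowest value of all was in 18 h replicate 3. Without OB 18 h replicate 1 and OB 0 h replicate 3 together, Cyp2a5 was no longer called (log2 -2.47, adjusted p 0.0642). Without 22 h replicate 1 alone it was not called either. Cyp2f2, another P450 of airway and nasal epithelium, had 2.23 to 6.55 normalized CPM (median 3.24) in the fed libraries and 0.829 to 1.33 (median 1.16) in the late ones (log2 fold change -1.75 ± 0.27 (SE), adjusted p 0.00904). All late values lay below all fed ones and close together, while the fed values spread, with 0 h replicate 3 the highest.

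Further genes were lower in every late library than in any fed one. Vmo1 fell (log2 -2.93, adjusted p 0.0101), the chitinase-like gene Chil6 (log2 -2.89, adjusted p 0.0036), Bpifb4, of the BPI fold family, (log2 -2.81, adjusted p 0.0299) and the carboxylesterase Ces1d (log2 -2.26, adjusted p 0.0439). These 4 genes averaged 4.02, 1.45, 4.82 and 1.19 normalized CPM in the fed libraries. Muc5b, a gel-forming mucin, had 64 against 4 counts, a ratio of 15.9 with a 95% counting interval of 5.90 to 59.97 (adjusted p 0.0405), with no more than 2 counts in any late library. DESeq2 did not call Chil6, Ces1d or Muc5b. No late library reached the filter's CPM of 0.860 in Gpx6, Chil6, Ces1d or Muc5b, so these passed it only through other libraries. With a filter of 6 libraries, 37 of the 40 called genes were tested, and Chil6, Ces1d and Muc5b were not among the calls. Without OB 18 h replicate 1 and OB 0 h replicate 3 together, Bpifb4 (log2 -2.70, adjusted p 0.0949) and Ces1d (log2 -2.17, adjusted p 0.0506) were not called. At 12 h these genes were low in replicates 1 and 2 and less so in replicate 3, with Cyp2a5 at 0.590, 1.65 and 4.13 normalized CPM and Gpx6 at 0.253, 0.198 and 1.88. At 8 h Cyp2a5 was at 6.75, 14.8 and 7.66, within the fed range in both lane codes, while Gpx6 was at 1.61, 1.77 and 1.01. From the fed to the late mean, the 8 h means had gone 61.8% of the way for Gpx6, 67.9% for Chil6, 57.96% for Vmo1, 62.2% for Bpifb4, 21.2% for Cyp2a5, 22.9% for Muc5b, -3.03% for Ces1d and -67.4% for Cyp2f2.

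The list of olfactory sensory neuron and nasal epithelium genes holds 21 genes, of which 19 passed the filter and Kcnmb3 and Krt5 did not. By edgeR Muc5b alone was called (0.173% of all genes were called lower). An unadjusted p under 0.05 was reached by 9 (3133 of all 16742 genes). DESeq2 called 3 (2.3% of all genes), Muc5b not among them. Groups did not overlap for 2 members (10.5%, against 1.55% of all genes). Of the 19, 17 had negative log2 fold changes, and the list's median was -0.31, against -0.00 over all genes. Its summed level was 565 to 1121 normalized CPM in the fed libraries (median 874) and 625 to 988 in the late ones (median 761), so that the groups overlap. Omp, the olfactory marker protein of mature sensory neurons and the list's gene with the most counts, had 80.97 to 358 normalized CPM (median 264) in the fed libraries and 154.3 to 309.9 (median 219) in the late ones and did not pass (adjusted p 0.783). Muc5b, the list's only call by edgeR, passed the filter only through libraries outside the late group. Gpx6, Cyp2a5, Cyp2f2, Vmo1, Chil6, Bpifb4 and Ces1d are not on the list. In bulk tissue, fewer cells of a type and less RNA per cell cannot be told apart, and which cells these transcripts came from was not tested.

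Flt1 and Kdr fell, as did Cd93 and Podxl. Flt1 (chr5:147561604-147726011, minus strand), a receptor for VEGF, lay at 20.1 to 34.2 normalized CPM (median 27.9) in the fed libraries and 12.2 to 19.95 (median 16.5) in the late ones (log2 fold change -0.80 ± 0.13 (SE), adjusted p 0.0101). The highest late library lay just below the lowest fed one, 0 h replicate 3, and all 3 libraries of 22 h were below all 3 of 18 h. Kdr, the main signaling receptor for VEGF, had 5.75 to 8.35 normalized CPM (median 6.90) in the fed libraries and 3.54 to 4.91 (median 4.56) in the late ones (log2 fold change -0.68 ± 0.13 (SE), adjusted p 0.0333), also without overlap. Cd93, a receptor of endothelial cells, lay at 4.48 to 7.05 normalized CPM (median 6.28) in the fed libraries and 2.34 to 4.19 (median 2.99) in the late ones (log2 fold change -0.95 ± 0.16 (SE), adjusted p 0.0148). Podxl, the sialomucin podocalyxin on the luminal face of vessels, had 16.3 to 21.8 normalized CPM (median 18.6) in the fed libraries and 5.91 to 14.4 (median 10.97) in the late ones (log2 fold change -0.80 ± 0.15 (SE), adjusted p 0.0354). In both the lowest library was of 22 h, the 3 libraries of 2 h were the highest, and the groups did not overlap.

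Further called genes, several of them known from endothelium, fell too. Ptprb, the endothelial receptor tyrosine phosphatase VE-PTP, fell (log2 -0.65, adjusted p 0.0168), Adgrf5, an adhesion receptor of endothelium, (log2 -0.71, adjusted p 0.0295), Jcad, a protein of endothelial junctions, (log2 -0.52, adjusted p 0.0416) and Itga1, a collagen-binding integrin, (log2 -0.55, adjusted p 0.0492). Adgrf5 overlapped between groups through 0 h replicate 3, at 10.3 against 16.2 to 19.2 in the other fed libraries. Ushbp1 (log2 -0.82, adjusted p 0.0295) was below the fed range in all late libraries but 18 h replicate 1. The chemokine Cxcl12, which vessels and neurons make, had 43.2 to 50.8 normalized CPM (median 47.2) in the fed libraries and 29.2 to 39.1 (median 36.3) in the late ones (log2 fold change -0.43 ± 0.08 (SE), adjusted p 0.03).

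The list of 22 endothelial and mural cell genes leaned the same way as a whole. All 22 passed the filter and all 22 had negative log2 fold changes, with a median of -0.48 against -0.00 over all genes. Of them 2 were called, Flt1 and Kdr (0.173% of all genes were called lower). At an unadjusted p under 0.05 there were 17 (3133 of all 16742 genes), and DESeq2 called 9 (2.3% of all genes). Groups did not overlap for 2 of them (9.09%, against 1.55%). The summed level was 439 to 585 normalized CPM fed (median 507) and 365 to 515 late (median 418), with Vtn the gene of most counts. The sums overlapped between groups through 18 h replicate 1, the highest late library. At 8 h the sums were 333 and 443 in the libraries with lane code L003 and 359 in the one with L004, and at 12 h 307 to 419.5. Within L003, Flt1 was 15.8 and 20.7 at 8 h against 20.1 to 34.2 in the fed libraries. Kdr was called in 5 of the 12 fits without 1 library. With gene length offsets Flt1 was not called (log2 -0.65, adjusted p 0.0738).

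Slc17a6, Adcyap1 and Kitl were lower in the late libraries. Slc17a6, the vesicular glutamate transporter VGLUT2, which mitral and tufted cells use, had 30.0 to 34.5 normalized CPM (median 32.5) in the fed libraries and 23.9 to 26.3 (median 24.2) in the late ones (log2 fold change -0.40 ± 0.07 (SE), adjusted p 0.0148). The late values were tight, and the highest of them, at 22 h, lay below every fed value. At 12 h Slc17a6 was within or just above the late range at 27.2, 24.9 and 28.7. Adcyap1, which encodes the neuropeptide PACAP, had 16.1 to 22.3 normalized CPM (median 19.2) in the fed libraries and 10.2 to 14.9 (median 13.3) in the late ones (log2 fold change -0.56 ± 0.11 (SE), adjusted p 0.0354). All 6 late libraries lay below the lowest fed one, and 5 of the 12 fits without 1 library called it. Kitl, the ligand of the receptor Kit, had 66.8 to 97.0 normalized CPM (median 84.2) in the fed libraries and 49.8 to 62.8 (median 55.1) in the late ones (log2 fold change -0.57 ± 0.09 (SE), adjusted p 0.00909). Its 8 h and 12 h levels, 69.8 to 85.6 and 73.9 to 84.4, were within the fed range, so that the low level was that of 18 h and 22 h.

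Kcnj10, Cp and Elovl7 were among the other genes that fell. Kcnj10, the glial potassium channel Kir4.1, had 338 to 461 normalized CPM (median 431) in the fed libraries and 309 to 366 (median 327) in the late ones (log2 fold change -0.33 ± 0.07 (SE), adjusted p 0.0492). The fed library 0 h replicate 3, at 338, lay within the late range, and the other fed libraries above it. Cp, the copper-carrying ferroxidase ceruloplasmin, had 18.9 to 25.7 normalized CPM (median 20.5) in the fed libraries and 12.6 to 15.97 (median 13.5) in the late ones (log2 fold change -0.62 ± 0.09 (SE), adjusted p 0.00728), with no overlap. The zinc transporter gene Slc39a12 fell (log2 -0.31, adjusted p 0.0497) and the sodium and myo-inositol transporter gene Slc5a3 (log2 -0.50, adjusted p 0.0435). Elovl7, a fatty acid elongase, had 18.7 to 22.3 normalized CPM (median 20.9) in the fed libraries and 12.2 to 15.7 (median 15.001) in the late ones (log2 fold change -0.49 ± 0.08 (SE), adjusted p 0.0148), while its 8 h and 12 h values (21.3 to 22.4 and 18.3 to 22.04) were like the fed ones. The chemokine gene Ccl28 fell (log2 -0.86, adjusted p 0.048).

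**Figure D1:**
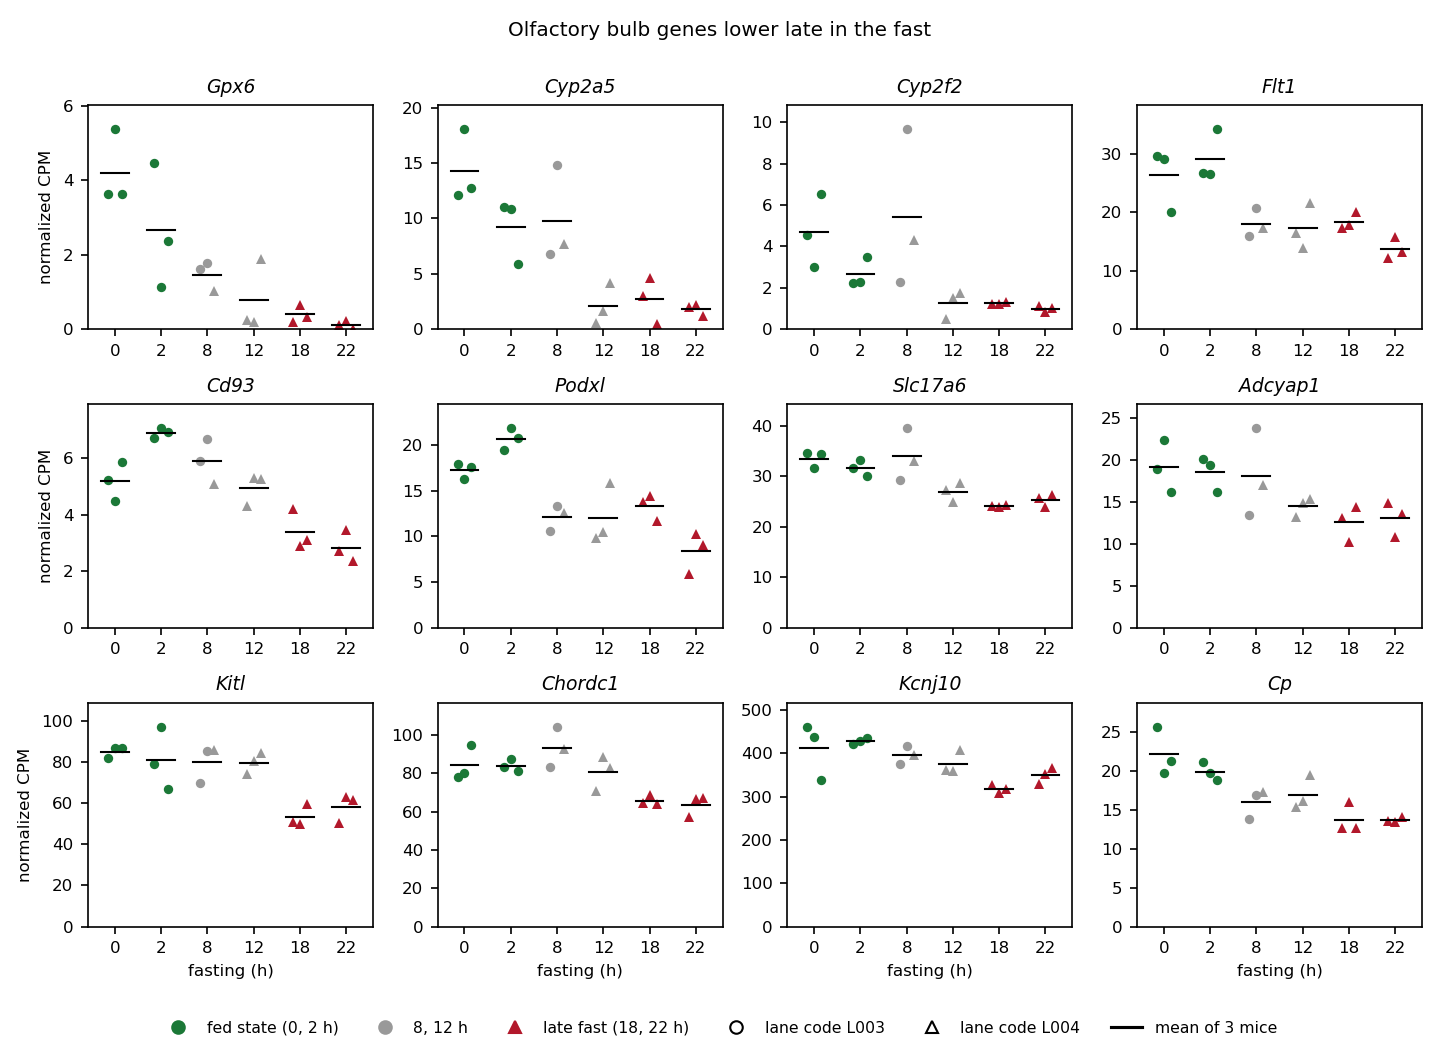
Normalized CPM (vertical axis, from 0) of 12 genes that fell, in each OB library by hours of fasting (horizontal axis), with circles for lane code L003, triangles for L004 and a line at the mean of 3 mice. Podxl is already low at 8 h in both codes (10.6, 13.3 and 12.6), and Kitl and Chordc1 only at 18 h and 22 h.

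Chrna10 and Hrh3 had the smallest p among the higher genes. Chrna10 (chr7:102111266-102116828, minus strand), a nicotinic acetylcholine receptor subunit known from the inner ear, had 11.4 to 14.8 normalized CPM (median 12.5) in the fed libraries and 17.8 to 21.6 (median 19.9) in the late ones (log2 fold change 0.62 ± 0.09 (SE), adjusted p 0.00636). Every late library lay above every other OB library, the highest of which was 12 h replicate 1 at 15.8. Hrh3, the histamine receptor that restrains transmitter release, had 34.6 to 45.3 normalized CPM (median 40.5) in the fed libraries and 51.5 to 64.1 (median 54.5) in the late ones (log2 fold change 0.46 ± 0.07 (SE), adjusted p 0.00998). All late libraries were above all fed ones, and 22 h replicate 1 was the highest. Both genes stayed called in all 12 fits without 1 library.

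Mt1, a metallothionein that binds zinc and copper and responds to glucocorticoids, had 170.2 to 224 normalized CPM (median 192.3) in the fed libraries and 233.6 to 289.8 (median 257) in the late ones (log2 fold change 0.44 ± 0.07 (SE), adjusted p 0.0148). The groups did not overlap, though 12 h replicate 1 (234.02) reached the late range. Cirbp, the cold-inducible RNA-binding protein, had 106 to 146.5 normalized CPM (median 126.4) in the fed libraries and 158 to 209.6 (median 173) in the late ones (log2 fold change 0.49 ± 0.09 (SE), adjusted p 0.0197), and the lowest late value stood above the highest fed one. Hspa2, of the HSP70 family, had 56.8 to 66.6 (median 59.999) fed and 68.5 to 78.8 (median 77.4) late (log2 fold change 0.33 ± 0.06 (SE), adjusted p 0.0299). Hmgb3, a chromatin protein, had 22.6 to 29.8 (median 26.03) fed and 31.6 to 42.1 (median 35.4) late (log2 fold change 0.44 ± 0.09 (SE), adjusted p 0.0354), and Hist3h2ba, a histone H2B gene, 22.1 to 27.96 (median 24.4) fed and 30.1 to 49.02 (median 33.7) late (log2 fold change 0.55 ± 0.11 (SE), adjusted p 0.0354). In each of these 3 genes all late libraries exceeded all fed ones, and 18 h replicate 1 was the highest for Hmgb3 and Hist3h2ba. The keratin gene Krt77 (1.72 to 2.80 (median 2.104) fed and 3.21 to 4.19 (median 3.73) late, log2 0.77, adjusted p 0.0492) and the microRNA host locus Mirlet7c-2 (1.62 to 2.58 (median 1.91) fed and 2.52 to 5.62 (median 3.67) late, log2 0.96, adjusted p 0.0492) were low in all libraries. Mirlet7c-2 overlapped between groups by a little. Without OB 18 h replicate 1 and OB 0 h replicate 3, neither it (log2 0.80) nor Krt77 (log2 0.68) was called.

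The clock genes that rose were 2 of 23 tested (0.0657% of all genes were called higher). Ciart, a repressor of the clock's activator complex, had 9.97 to 12.04 normalized CPM (median 10.6) in the fed libraries and 12.2 to 17.1 (median 16.3) in the late ones (log2 fold change 0.53 ± 0.10 (SE), adjusted p 0.0206). Among late libraries 18 h replicate 1 was the lowest, just above the highest fed value, and the 8 h and 12 h libraries were no higher than the fed ones at 8.37 to 9.22 and 7.58 to 10.1. Dbp, a transcription factor driven directly by the clock, had 87.7 to 123.5 normalized CPM (median 105.4) in the fed libraries and 123.6 to 187.5 (median 143.4) in the late ones (log2 fold change 0.46 ± 0.09 (SE), adjusted p 0.0497). The lowest late library, 22 h replicate 3, and the highest fed one, 2 h replicate 1, were almost equal. Per1 had 80.3 to 182.6 normalized CPM (median 161.04) in the fed libraries and 79.8 to 210.1 (median 160.4) in the late ones (log2 0.07, adjusted p 0.887) and Per2 26.99 to 55.5 normalized CPM (median 31.2) in the fed libraries and 20.01 to 39.8 (median 29.3) in the late ones (log2 -0.23, adjusted p 0.571), both with overlap. With gene length offsets Ciart was not called (log2 0.46, adjusted p 0.0603), and of the 12 fits without 1 library 7 called Ciart and 4 called Dbp. Over the 23 clock genes 8 had an unadjusted p under 0.05 (3133 of all 16742 genes) and DESeq2 called 3 (2.3% of all genes). Of the 23, 15 had a positive log2 fold change, and the median was 0.05.

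**Figure D2:**
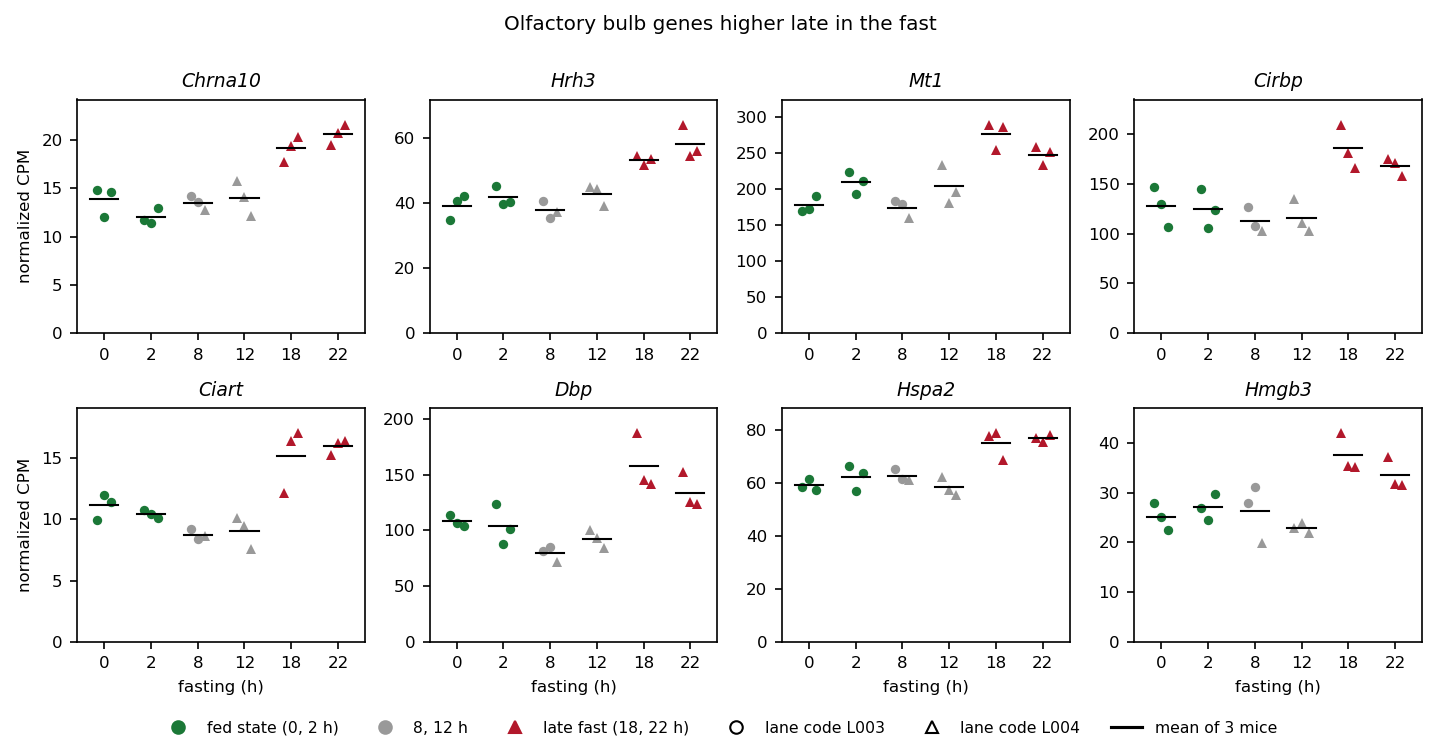
Normalized CPM (vertical axis, from 0) of 8 genes that rose, in each OB library by hours of fasting (horizontal axis), with circles for lane code L003, triangles for L004 and a line at the mean of 3 mice. The 12 h libraries share lane code L004 with the late ones and lie near the fed level for all 8 genes, with Mt1 in 12 h replicate 1 the exception.

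By edgeR the lists of glucocorticoid response genes and of neuropeptides with their receptors gave 1 call each. In the glucocorticoid response list 34 of 35 genes were tested and Mt1 was called (0.0657% of all genes were called higher), 8 had an unadjusted p under 0.05 and DESeq2 called 5, 3 members (8.82%, against 1.55% of all genes) did not overlap between groups, and the median was 0.04. Sgk1, a kinase gene that glucocorticoids induce, had 33.9 to 71.9 normalized CPM (median 54.8) in the fed libraries and 34.8 to 87.6 (median 76.004) in the late ones (log2 0.44, adjusted p 0.339), and Fkbp5, which encodes a co-chaperone of their receptor, 43.98 to 77.7 normalized CPM (median 59.4) in the fed libraries and 56.3 to 74.4 (median 66.1) in the late ones (log2 0.14, adjusted p 0.579). Both overlapped, and Fkbp5 was about as high at 2 h (68.3 to 77.7) as at 22 h (61.3 to 74.4). Of 38 tested genes for neuropeptides and their receptors, Adcyap1 alone was called by edgeR (0.173% of all genes were called lower). Of the 38, 9 had an unadjusted p under 0.05 (3133 of all 16742 genes). DESeq2 called 2 (2.3% of all genes), and the median was -0.08. Npy, the neuropeptide Y gene, which ensheathing glia of the bulb also express, had 89.03 to 121.8 normalized CPM (median 99.9) in the fed libraries and 96.3 to 160.8 (median 112.6) in the late ones (adjusted p 0.266). A total of 12 of the 50 genes on that list, with the receptor genes Ghsr, Glp1r, Mc4r and Hcrtr1 among them, lay under the filter.

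Among the insulin, IGF and FoxO genes 0 of 32 were called by edgeR, and the median was -0.03. Of the 32, 6 had an unadjusted p under 0.05 (3133 of all 16742 genes) and DESeq2 called 2 (2.3% of all genes). Igf1, a growth factor, had 41.9 to 55.8 (median 45.98) fed and 34.2 to 44.6 (median 36.8) late (adjusted p 0.0964), and Txnip, which responds to glucose, 20.2 to 33.1 (median 25.9) fed and 22.1 to 37.4 (median 28.6) late (adjusted p 0.658). Immediate early genes, which follow neuronal activity, gave 0 of 30 calls by edgeR, 5 at an unadjusted p under 0.05 and 1 by DESeq2. Fos had 17.7 to 107 (median 67.9) fed and 8.17 to 82.8 (median 63.8) late (adjusted p 0.751) and Egr1 85.7 to 472 (median 344) fed and 56.7 to 489 (median 342) late (adjusted p 0.987), and the lowest value in each group came from 0 h replicate 1 and 18 h replicate 1. Gadd45g (log2 0.40, adjusted p 0.0946) and Homer1 (log2 -0.34, adjusted p 0.146) had the smallest p of that list.

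Lists of fuel genes gave 0 calls by edgeR. For glycolysis and glucose uptake edgeR called 0 of 27 genes. An unadjusted p under 0.05 was reached by 7 (3133 of all 16742 genes), and DESeq2 called 1 (2.3% of all genes). Of the 27, 20 had positive log2 fold changes, with a median of 0.10 and examples in Pfkp (log2 -0.27) and Aldoa (log2 0.17). Their sum was 7648 to 8671 normalized CPM fed (median 8187) and 8125 to 9821 late (median 8516), with overlap. Ketone body and fatty acid genes gave 0 of 36 by edgeR, 7 at an unadjusted p under 0.05 and 1 by DESeq2. Of the 36, 24 had positive log2 fold changes (median 0.05). Cpt1a, which brings fatty acids into mitochondria, had 32.4 to 44.8 (median 36.7) fed and 31.1 to 36.8 (median 35.2) late normalized CPM (adjusted p 0.434), with overlap between groups. Cholesterol genes gave 0 of 27 by edgeR, 3 at an unadjusted p under 0.05 and 0 by DESeq2, with 12 positive log2 fold changes and a median of -0.04.

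Lists of stress and folding genes gave 2 calls by edgeR (0.0657% of all genes were called higher and 0.173% lower). Of 30 heat shock and cold-inducible genes Cirbp rose and Chordc1, an HSP90 co-chaperone, fell, from 78.2 to 94.7 fed (median 82.1) to 57.4 to 68.7 late (median 65.4) without overlap (log2 fold change -0.38 ± 0.07 (SE), adjusted p 0.0168). On the list 6 had an unadjusted p under 0.05 (3133 of all 16742 genes) and DESeq2 called 2 (2.3% of all genes). The list's median was -0.05. Chaperones of the endoplasmic reticulum gave 0 of 22 calls by edgeR, 9 at an unadjusted p under 0.05 and 2 by DESeq2. Of these chaperone genes 19 had negative log2 fold changes (median -0.19), with Hsp90b1 at -0.28 and Dnajc3 at -0.25. ATF4 targets gave 0 of 30 by edgeR, 6 at an unadjusted p under 0.05 and 1 by DESeq2 (median 0.06). Ddit4, a stress-induced inhibitor of mTORC1, was close to the threshold with 63.1 to 88.5 (median 75.2) fed and 82.6 to 115.98 (median 99.1) late (log2 0.42, adjusted p 0.0503). Autophagy and lysosome genes gave 0 of 29 by edgeR, 4 at an unadjusted p under 0.05 and 1 by DESeq2, with 22 positive log2 fold changes (median 0.07) and Sqstm1, an autophagy receptor, at 0.19.

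Most cell type lists of the bulb gave 0 calls by edgeR. Slc17a6 was the only gene that edgeR called of 14 for mitral and tufted cells (0.173% of all genes were called lower). Of the 14, 3 had an unadjusted p under 0.05 (3133 of all 16742 genes). DESeq2 called 1 (2.3% of all genes), and the median was -0.08. Periglomerular and dopaminergic genes gave 0 of 13 by edgeR, 3 at an unadjusted p under 0.05 and 0 by DESeq2 (median -0.04), and Th, the enzyme that starts dopamine synthesis, had 243 to 298 (median 271) fed and 219.8 to 315 (median 252) late (adjusted p 0.786). Granule cell genes gave 0 of 15 by edgeR, 6 at an unadjusted p under 0.05 and 1 by DESeq2 (median 0.03). Genes of neuroblasts and the cell cycle gave 0 of 25 by edgeR, 11 at an unadjusted p under 0.05 and 4 by DESeq2. Of the 25, 19 had positive log2 fold changes (median 0.15) and 3 (12%, against 0.914% of all genes) lay higher in every late library than in any fed one, among them Sp9 (62.8 to 75.1 (median 69.1) fed and 78.2 to 87.97 (median 83.9) late, adjusted p 0.0588) and Dlx2 (59.97 to 73.7 (median 65.3) fed and 74.3 to 84.6 (median 77.6) late, adjusted p 0.0764), transcription factors of interneuron precursors. The summed level of this list was 2253 to 2393 normalized CPM fed (median 2347) and 2514 to 2602 late (median 2568), without overlap, 2486, 2537 and 2412 at 8 h, each above every fed library, and 2360.0 to 2434 at 12 h, with Tubb3 the gene of most counts. Olfactory ensheathing cell genes gave 0 of 13 by edgeR, 1 at an unadjusted p under 0.05 and 0 by DESeq2 (median -0.01). Excitatory neuron genes of the neighbouring cortex gave 0 of 14 by edgeR, 4 at an unadjusted p under 0.05 and 1 by DESeq2 (median -0.13).

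Glial lists gave 0 calls by edgeR: of 20 astrocyte genes 4 had an unadjusted p under 0.05 and DESeq2 called 3 (median -0.00), of 21 oligodendrocyte and myelin genes 10 and 3 (median 0.13), and of 20 microglia and macrophage genes 4 and 0 (median -0.07). Among all 16742 genes 3133 had an unadjusted p under 0.05, and DESeq2 called 2.3%. Aqp4, the water channel of astrocyte endfeet around vessels, had 194 to 271 (median 230.4) fed and 167.2 to 208 (median 186.995) late (log2 -0.34, adjusted p 0.0615), and Cnp, a myelin enzyme, 182 to 234.8 (median 195) fed and 213 to 279.9 (median 240.5) late (log2 0.27, adjusted p 0.0965). Meningeal and fibroblast genes gave 0 of 16 by edgeR, 2 at an unadjusted p under 0.05 and 1 by DESeq2, with 15 negative log2 fold changes (median -0.28) and Fn1, fibronectin, at -0.39 (adjusted p 0.054). Choroid plexus genes gave 0 of 8 by edgeR, 1 at an unadjusted p under 0.05 and 0 by DESeq2 (median -0.52). Their sum was 435 normalized CPM in 0 h replicate 3, 58.1 to 94.9 in the other fed libraries and 64.5 to 75.7 in the late ones, with Aqp1 the gene of most counts. Blood cell genes gave 0 of 12 by edgeR, 4 at an unadjusted p under 0.05 and 0 by DESeq2 (median -0.20).

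Receptor lists leaned lower. Glutamate receptor genes gave 0 of 24 by edgeR, 6 at an unadjusted p under 0.05 and 0 by DESeq2, with 19 negative (median -0.13). GABA receptor genes gave 0 of 15 by edgeR, 4 at an unadjusted p under 0.05 and 3 by DESeq2, with 14 negative (median -0.12). The medians were -0.26 at 18 h against 0 h and -0.02 at 22 h against 2 h for glutamate receptors, and -0.16 at 18 h against 0 h and -0.04 at 22 h against 2 h for GABA receptors. The glutamate receptor sum was lowest in 18 h replicate 1 (2795 normalized CPM), and at 22 h (3307 to 3416) it was within the fed range (3185 to 3480.2). For GABA receptors the sums at 22 h were 2228, 2281 and 2407, against 2309 to 2565 fed. Gabra2, a subunit of the GABA-A receptor, had 66.3 to 91.3 (median 83.4) fed and 60.4 to 68.5 (median 63.2) late (log2 -0.33, adjusted p 0.0615), and its groups overlapped through 0 h replicate 1 (66.3). Neurotrophin and growth factor genes (medians of -0.19 at 18 h against 0 h and -0.06 at 22 h against 2 h) gave 0 of 20 by edgeR, 9 at an unadjusted p under 0.05 and 0 by DESeq2, with 18 negative (median -0.16). Hypoxia and angiogenesis genes gave 0 of 19 by edgeR, 8 at an unadjusted p under 0.05 and 4 by DESeq2 (median -0.10), and Vegfa, the ligand of Flt1 and Kdr, had 61.2 to 81.1 (median 71.6) fed and 53.0 to 65.9 (median 54.99) late (log2 -0.31, adjusted p 0.0764). By edgeR Cxcl12 was the call among 28 interferon and immune genes, and Kcnj10 that among 13 thyroid hormone genes. Over all genes 0.173% were called lower, 3133 of 16742 had an unadjusted p under 0.05 and DESeq2 called 2.3%. Of the interferon and immune genes 5 had an unadjusted p under 0.05 and DESeq2 called 2 (median -0.08). Of the thyroid hormone genes 5 had an unadjusted p under 0.05 and DESeq2 called 4 (median -0.05).

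Transcripts of short genes had higher medians late, with 18 h replicate 1 the farthest. Nuclear genes for oxidative phosphorylation, which build the respiratory chain, gave 0 of 72 by edgeR, 35 at an unadjusted p under 0.05 and 2 by DESeq2, with 69 positive (median 0.19). The shares over all genes were 3133 of 16742 at an unadjusted p under 0.05 and 2.3% by DESeq2. Ribosomal protein genes gave 0 of 83 by edgeR, 31 at an unadjusted p under 0.05 and 3 by DESeq2, with 67 positive (median 0.16). Protein-coding mitochondrial transcripts gave 0 of 11 by edgeR, 4 at an unadjusted p under 0.05 and 2 by DESeq2, with 10 negative (median -0.17), and mt-Co1 at -0.30. Nuclear-retained RNAs and splicing regulators gave 0 of 35 by edgeR, 14 at an unadjusted p under 0.05 and 0 by DESeq2, with 30 negative (median -0.14). The median log2 fold change of all genes was 0.13 in the shortest of 5 equal groups by exon length and -0.10 in the longest. The sums of 18 h replicate 1 were 6136 normalized CPM for ribosomal protein genes, against 4285 to 5096 in the other late libraries, and 16491 for oxidative phosphorylation, against 11598 to 13562. The difference between short and long transcripts was 0.176, -0.0651 and 0.0122 at 22 h and 0.116, -0.109 and 0.0230 at 2 h. With length offsets in the fit 72 genes were called, and 31 of the 40 were among them, without Flt1, Ciart, Cxcl12, Hspa2, Itga1, Krt77, Mirlet7c-2 and Slc5a3. The share of gene length in these lists was not tested.

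**Figure D3:**
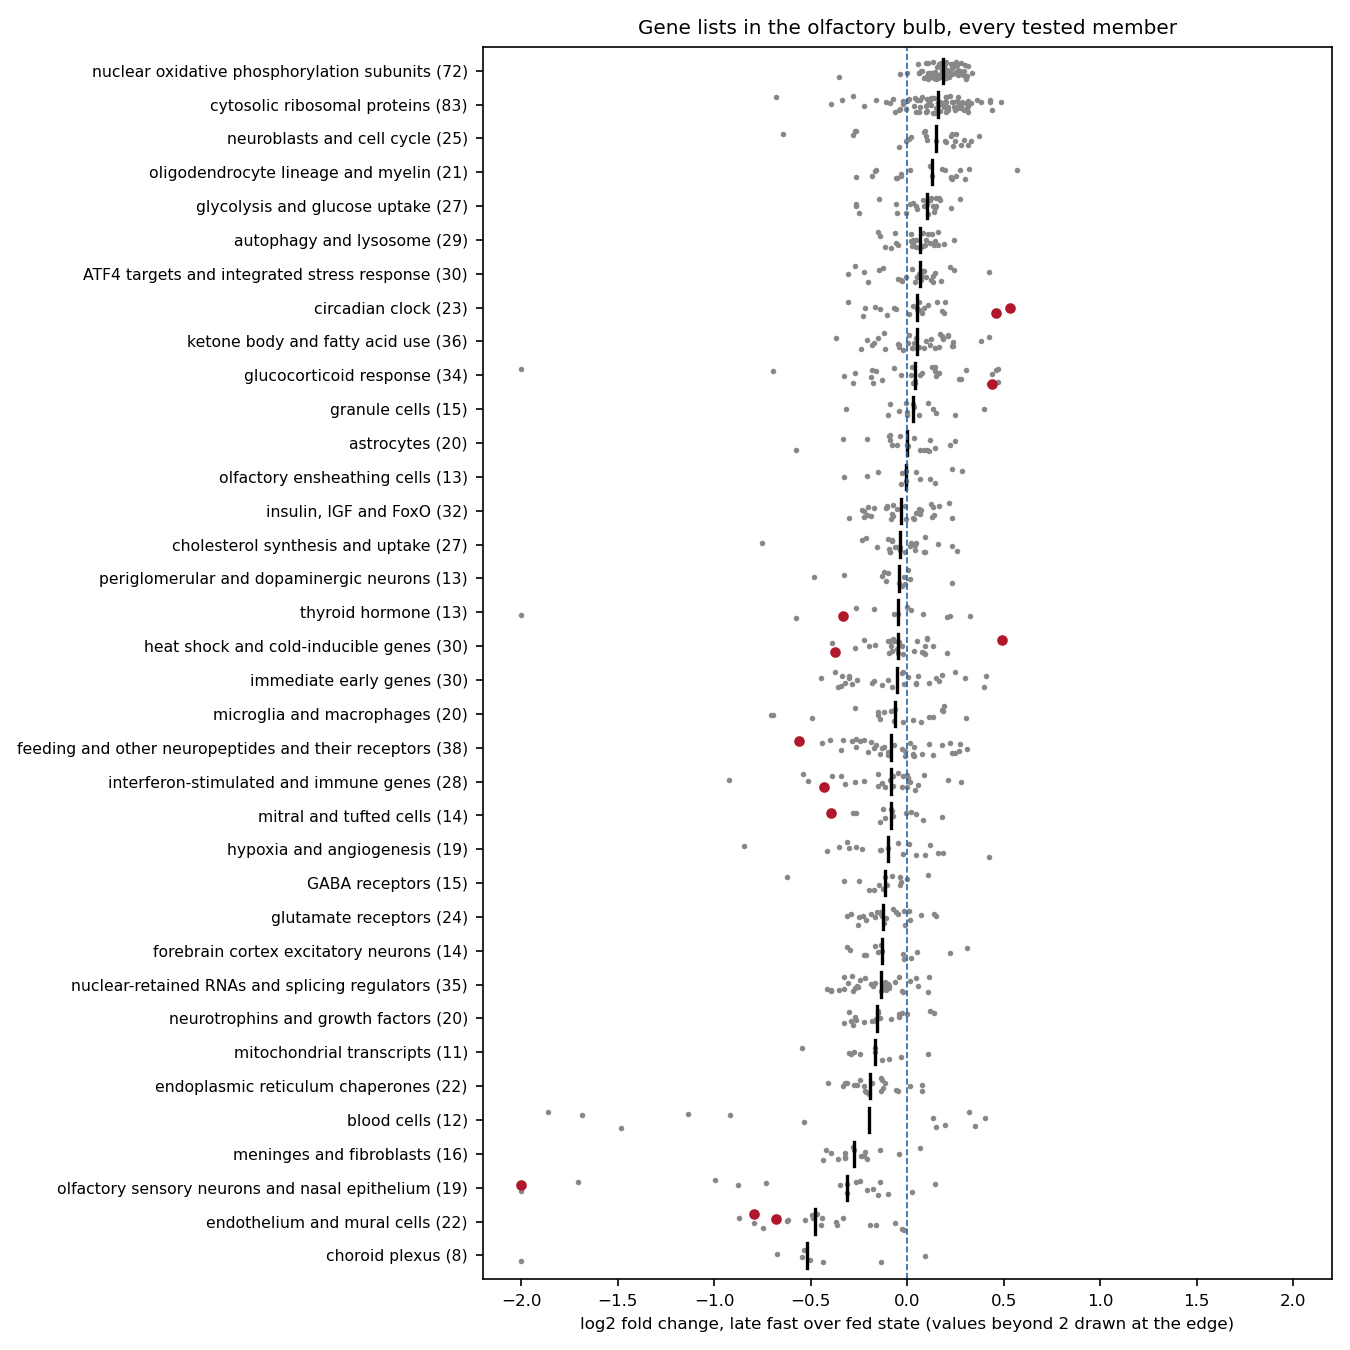
Log2 fold change of late over fed libraries (horizontal axis) for every tested member of the gene lists (1 line each, with the number tested), as points spread vertically at random, called genes in red and medians as black bars. The dashed line is the median of all genes, and the 6 points beyond 2 are drawn at the edge. All 22 endothelial and mural genes have negative values.

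The late group joins 2 fasting times, each of which can be set against its own fed time with no shared library. At 18 h against 0 h 688 genes were called (4.11%), 325 higher (1.94%) and 363 lower (2.17%). At 22 h against 2 h 9 were called (0.0538%), 1 higher (0.00597%) and 8 lower (0.0478%). The 40 genes had the same sign in both, as their choice on the joint comparison favours. A test of the difference between the pairs called 1 gene (0.00597%), the beta-globin gene Hbb-bt, and 1810 genes had an unadjusted p under 0.05, while DESeq2 called 27. Between 2 h and 0 h edgeR called 0 genes, with 450 at an unadjusted p under 0.05 and 1 by DESeq2.

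The count at 18 h rests on single libraries: it was 3 without 0 h replicate 1, 3 without 18 h replicate 1, 8 without 18 h replicate 3, 87 without 0 h replicate 2, 1457 without 0 h replicate 3 and 1587 without 18 h replicate 2. As a share of the genes tested it went from 4.11% to 0.753% without 2 h replicate 3 and 0.687% without 22 h replicate 3, which enter through the shared estimate of spread. Without 18 h replicate 1 and 0 h replicate 3 together it was 387, and with length offsets 52. Ribosomal protein genes had a median log2 fold change of 0.29 at 18 h, 14 of 83 being called higher (all genes 1.94%), and 0.03 at 22 h against 2 h. Nuclear oxidative phosphorylation genes had medians of 0.34 and 0.03. The shortest and longest of the 5 length groups had medians of 0.23 and -0.21 at 18 h, and 0.03 and -0.00 at 22 h against 2 h. Glucocorticoid response genes gave 7 higher calls of 34 at 18 h against 0 h (all genes 1.94%), with a median of 0.11, against -0.02 at 22 h against 2 h. Their sums were 1675 to 1842 at 0 h, 2007 to 2238 at 2 h and 1802 to 2317 at 18 h, lowest in replicate 1.

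The red cell gene Hbb-bt went opposite ways at the 2 late times. It was at 7.97, 7.89 and 6.65 normalized CPM at 18 h and 2.25, 2.64 and 1.98 at 0 h (log2 fold change 1.71 ± 0.20 (SE), adjusted p 0.00291). It stood at 2.09, 2.004 and 1.83 at 22 h and 3.76, 5.43 and 5.24 at 2 h (log2 fold change -1.30 ± 0.22 (SE), adjusted p 0.0272). Neither set of 3 overlapped the other, and the difference between the pairs was 3.02 ± 0.30 (SE), adjusted p 0.000194. Of the 12 tested blood cell genes 4 were called higher at 18 h in the fit of all libraries (1.94% of all genes), Hbb-bt with the alpha-globin genes Hba-a1 (log2 1.26, adjusted p 0.0436) and Hba-a2 (log2 1.15, adjusted p 0.0322) and the heme synthesis gene Alas2 (log2 1.17, adjusted p 0.0287), the last 3 named after their values were seen. Between 22 h and 18 h edgeR called Hbb-bt (log2 -1.94), Hopx (log2 -0.59) and Scaf4 (log2 0.79), the last 2 also named for this result (0.0179%). With the replicate number as a block the share called was 0.968%.

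At 22 h against 2 h, Vwf, Flt1 and Ly6a of the endothelial and mural list were among the 9 calls (0.0478% of all genes were called lower). Of the 9, Podxl had a log2 fold change of -1.26 ± 0.15 (SE, adjusted p 0.0047), Vwf, the von Willebrand factor of endothelial cells, -1.36 ± 0.22 (adjusted p 0.0272), Cd93 -1.28 (adjusted p 0.0243), Flt1 -1.09 (adjusted p 0.0117), Ly6a, an endothelial surface protein, -1.01 (adjusted p 0.00751) and Slco1c1, a thyroid hormone carrier of brain vessels and astrocytes, -0.86 (adjusted p 0.0476). For Ly6a the 2 h libraries were the high ones (17.7, 17.997 and 21.4, against 12.7, 11.5 and 12.3 at 0 h and 10.3, 9.88 and 8.46 at 22 h). At 18 h against 0 h these 6 genes had log2 fold changes of -0.61 to 0.15, none called, and for none did the difference between the pairs pass (adjusted p 0.0684 for Ly6a, and 0.375 to 0.443 for the others). Of the endothelial and mural list, Kdr and Abcc9 were called lower at 18 h against 0 h (2.17% of all genes). The list had medians of -0.29 at 18 h and -0.66 at 22 h, against 0.00 for all genes in both. For blood cell genes the medians at 18 h and 22 h were 0.25 and -1.36. They were -0.24 and -0.33 for meningeal and fibroblast genes, and 0.15 and -0.27 for microglia and macrophage genes. Oligodendrocyte and myelin genes had positive medians at both times (0.22 and 0.13). Gpx6 fell (-4.55, adjusted p 0.016) and Chrna10 rose (0.78, adjusted p 0.016) at 22 h, and both passed at 18 h as well. Leaving out 1 library gave 0 to 14 calls, with 0 without 2 h replicate 3 or 22 h replicate 3, 2 without 22 h replicate 1, 5 without 0 h replicate 1 or 2 h replicate 1, and 14 without 18 h replicate 1.

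The levels of the called genes at the times between were set against their fed and late means. Each time is of different mice, and the 12 h libraries carry lane code L004, as the late ones do. The code and time therefore cannot be told apart where 12 h is compared with the fed libraries. Of the 11 higher genes 9 were nearer the fed than the late mean at 12 h, the median gene having gone 14.6% of the way, and for 8 every late library lay above every 12 h library. The 40 genes were chosen on their late and fed values, and that choice favours late values that lie beyond those of 12 h. Of the 29 lower genes 6 were nearer the fed mean at 12 h, the median gene having gone 72.0% of the way, and for 4 every late library lay below every 12 h library. At 8 h the median gene had gone -17.7% of the way among the higher genes, away from the late level, and 52.3% among the lower ones. Late against 12 h libraries, edgeR called 0 genes, with 3754 at an unadjusted p under 0.05, while DESeq2 called 554. Of the higher genes 9 and of the lower 10 had an unadjusted p under 0.05 in that direction. Without 18 h replicate 1 this comparison gave 650 calls, without 22 h replicate 2 886, without 22 h replicate 3 13 and without 12 h replicate 1 2.

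Other brain regions of the same mice were set beside the bulb. The test of a different late effect in OB and CBL, with each mouse as a block, called 31 of 15451 genes (0.201%), 4 higher and 27 lower in OB. In CBL alone 0.632% of the genes tested were called, with 0 calls without CBL 2 h replicate 1 or CBL 18 h replicate 3, and all CBL libraries carry lane code L003. In OB the code differs between fed and late libraries, so the code and a late effect particular to OB cannot be told apart. Flt1 fell in OB and in CBL lay at 14.996 to 22.1 (median 17.3) fed and 16.8 to 35.7 (median 30.0) late normalized CPM (log2 fold change 0.70 ± 0.17 (SE), adjusted p 0.0736). The CBL groups overlapped, with the higher median late, and the OB minus CBL difference was -1.45 ± 0.20 (SE), adjusted p 0.0136.

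Adgrf5 (difference -1.31 ± 0.19 (SE), adjusted p 0.0136), Ptprb (-1.15 ± 0.18 (SE), adjusted p 0.0151) and Podxl (-1.20 ± 0.24 (SE), adjusted p 0.0454) differed in the same direction. So did other genes known from vessels that were not called in OB alone, among them Abcb1a, the P-glycoprotein drug pump of the blood-brain barrier (-1.33 ± 0.21 (SE), adjusted p 0.0151), Vwf (-1.36 ± 0.22 (SE), adjusted p 0.0151) and the anion transporter gene Slco1a4 (-0.87 ± 0.12 (SE), adjusted p 0.0136). Abcb1a had 15.7 to 20.7 (median 17.7) fed and 8.37 to 15.9 (median 13.1) late in OB (log2 -0.49, adjusted p 0.0786) and 8.25 to 16.7 (median 11.5) fed and 16.3 to 29.01 (median 19.5) late in CBL. Over the endothelial and mural list 6 of 22 genes differed between OB and CBL (0.201% of all genes), Flt1, Vwf, Slco1a4, Abcb1a, Abcc9 and Esam, all lower in OB, with a median difference of -0.89 against 0.00 over all genes. Kitl differed by -0.61 ± 0.10 (SE), adjusted p 0.0151, with 177 to 223 (median 209) fed and 200.4 to 218 (median 209) late normalized CPM in CBL, where it showed no shift.

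Genes known from the olfactory mucosa had lower late medians in CBL too, at trace levels and with overlap. The medians were 2.60 fed and 0.294 late normalized CPM for Cyp2a5 (log2 -2.77, adjusted p 0.173), 1.125 fed and 0.530 late for Cyp2f2 (adjusted p 0.401), 1.18 fed and 0.360 late for Omp (adjusted p 0.118) and 0.226 fed and 0 late for Gpx6, which was under the filter there. In BST the median was higher late for Gpx6 (0.364 fed and 0.691 late). It was lower late there for Cyp2a5 (1.01 and 0.757), Cyp2f2 (0.424 and 0.241) and Omp (1.84 and 0.909). Gpx6 and Cyp2f2 were under the filter in BST. In BRN the median was higher late for Cyp2f2 (0.578 fed and 1.37 late). It was lower late there for Cyp2a5 (0.824 and 0.378) and Gpx6 (1.28 and 0.613). The OB minus CBL difference of Cyp2a5 was 0.14 (adjusted p 0.971).

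The number of differences depends on single mice. Leaving out 1 mouse gave 0 to 69 calls, with 0 without mouse 15, 11 without mouse 2 or mouse 5, 12 without mouse 1, 19 without mouse 18, 64 without mouse 17 and 69 without mouse 13. Without the mice of OB 18 h replicate 1 and OB 0 h replicate 3 it gave 70, and without the block 17. The CBL libraries at 0 h were deeper (totals of 20396385 to 22071004) than the other fed and late CBL libraries (6872363 to 9487976), and what part depth has in the difference was not tested.

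Against brainstem and brain the bulb gave no called difference by edgeR. The fed and late BST libraries all carry lane code L004, and those of BRN carry mixed codes. In BST edgeR called 0 genes, with 1786 at an unadjusted p under 0.05 and 48 by DESeq2, and the OB minus BST difference gave 0 calls by edgeR, 1902 at an unadjusted p under 0.05 and 43 by DESeq2. In BRN, where the fit left out 18 h replicate 1 for its low total, 578 genes were called (3.45%), with 0 in 7 of the 11 fits without 1 library and 0 with the replicate number as a block. There the medians were 0.78 for ribosomal protein and 0.72 for oxidative phosphorylation genes, and 18 h replicate 2 had a total of 3045845 with 17.5% in its top 10 genes. The part of RNA quality and depth in these calls was not tested. An unadjusted p under 0.05 was reached by 16.4% of the genes tested in CBL, 10.6% in BST and 26.1% in BRN. The OB minus BRN difference gave 0 calls by edgeR, 3220 at an unadjusted p under 0.05 and 834 by DESeq2. The endothelial and mural list had medians of 0.48 in CBL, -0.11 in BST and 0.07 in BRN. Of the 11 higher OB genes 9 were tested in each region, and 9 in CBL, 8 in BST and 8 in BRN had a positive log2 fold change, with medians of 0.29, 0.09 and 0.26. Of the lower OB genes 7 of 23 in CBL, 18 of 22 in BST and 17 of 25 in BRN had a negative one. Cirbp had log2 fold changes of 0.40 in CBL, 0.34 in BST and 0.64 in BRN, and Chrna10 was under the filter in all 3.

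**Figure D4:**
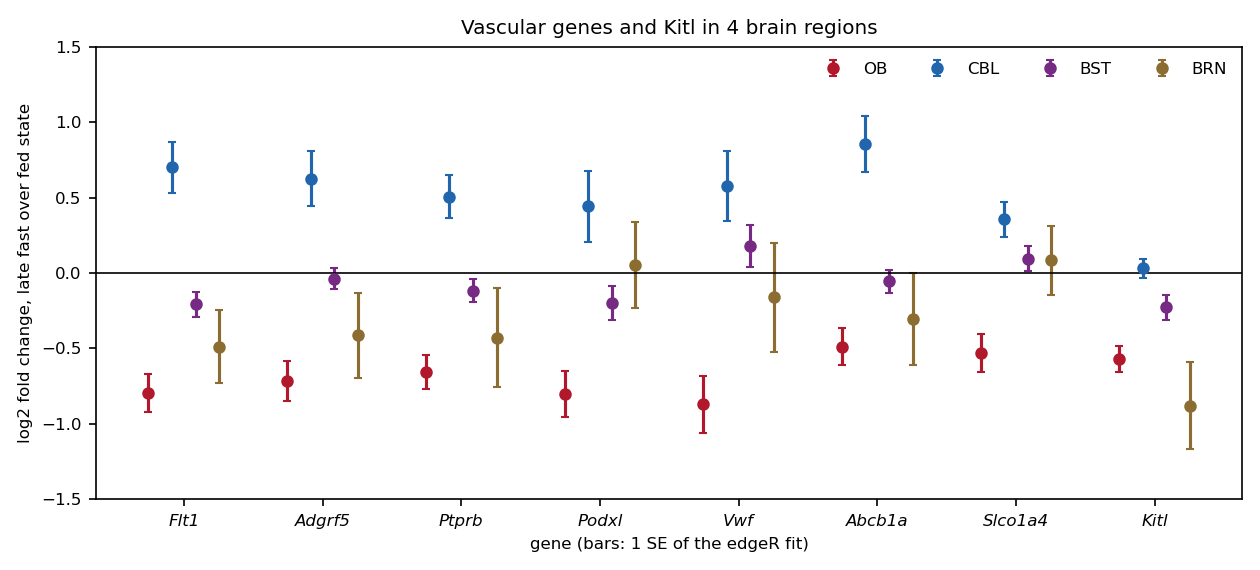
Log2 fold change of late over fed libraries (vertical axis, points with bars of 1 SE of the edgeR fit) for 7 vessel genes and Kitl (horizontal axis) in OB, CBL, BST and BRN. All 8 genes are negative in OB and positive in CBL, where none of them passed.

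Regulatory sequence can be set beside the called genes. RefSeq promoters (GRCm38.p6, 250 bases before the start of transcription, both strands searched) were found for 31 of the 40. RefSeq and Gencode place some starts differently, so that the windows of Gpx6 and Chrna10 run into the gene coordinates given above. The glucocorticoid receptor motif, AGAACA or TGTTCT, was in 5 of 31, those of Chrna10, Hmgb3, Cp, Kcnj10 and Adgrf5, and in 16.1% of 32851 promoters. The E-box CACGTG, which the clock's activators bind, was in 2, those of Ciart and Gpx6, and in 6.02% of all promoters. A cAMP response element, TGACGTCA, or the forms CGTGACG and CGTCACG, was in 1, that of Flt1, and in 3.06%. The heat shock element was in 0, and in 0.466% of all promoters. The promoters of Ciart, Chrna10, Flt1 and Gpx6 are shown as examples that hold a motif, with each motif in capitals. A match describes letters and no binding.
Ciart promoter, chr3:95882229-95882478, minus strand: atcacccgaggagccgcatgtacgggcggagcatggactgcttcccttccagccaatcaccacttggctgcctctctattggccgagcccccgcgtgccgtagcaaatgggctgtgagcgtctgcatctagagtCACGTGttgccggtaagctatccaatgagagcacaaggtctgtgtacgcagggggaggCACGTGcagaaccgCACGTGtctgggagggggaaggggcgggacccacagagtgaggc
Chrna10 promoter, chr7:102116714-102116963, minus strand: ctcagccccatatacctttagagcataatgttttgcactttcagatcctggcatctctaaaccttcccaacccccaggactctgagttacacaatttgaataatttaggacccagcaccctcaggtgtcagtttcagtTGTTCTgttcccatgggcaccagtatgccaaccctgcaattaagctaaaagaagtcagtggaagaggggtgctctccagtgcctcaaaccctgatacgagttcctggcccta
Flt1 promoter, chr5:147726012-147726261, minus strand: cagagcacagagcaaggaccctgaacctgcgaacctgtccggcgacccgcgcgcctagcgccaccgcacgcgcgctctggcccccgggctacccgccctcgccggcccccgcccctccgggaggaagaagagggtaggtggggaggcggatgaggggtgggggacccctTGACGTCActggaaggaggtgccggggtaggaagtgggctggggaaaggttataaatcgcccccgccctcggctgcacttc
Gpx6 promoter, chr13:21311953-21312202, plus strand: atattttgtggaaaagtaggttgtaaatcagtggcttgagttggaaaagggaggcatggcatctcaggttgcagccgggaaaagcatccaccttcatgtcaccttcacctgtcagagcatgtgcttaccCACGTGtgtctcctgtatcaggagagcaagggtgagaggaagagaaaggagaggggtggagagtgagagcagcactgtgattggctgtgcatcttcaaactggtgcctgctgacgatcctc
The Ciart window holds 3 copies of CACGTG, and the others 1 motif each.

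Mirlet7c-2 is the locus of a let-7c hairpin, and its counts come from poly(A) RNA of that stretch, not from the mature microRNA. It lies within the noncoding gene Lncppara on the same strand, so that the rise of 0.96 may be of either transcript. The mature sequences, with the seed (bases 2 to 8) in capitals, are given for identity. The first is also encoded by Mirlet7c-1 and the other by Mirlet7a-1.
mmu-let-7c-5p, chr15:85706616-85706637, plus strand: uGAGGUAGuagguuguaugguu
mmu-let-7c-2-3p, chr15:85706664-85706685, plus strand: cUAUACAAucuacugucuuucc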

How the data were processed

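The counts are those the authors deposited: stranded poly(A) libraries were aligned to GRCm38.p5 with TopHat2 2.1.1, and uniquely mapped reads were counted over Gencode M16 genes with HTSeq-count 0.9.1, with nothing normalized or removed. From there on, edgeR 4.0.16 (TMM factors, robust quasi-likelihood test) in R 4.3.3 tested genes with a CPM of at least 0.860, which is 10 counts in a library of median size, in at least 3 of the 18 OB libraries. A call is an adjusted p (Benjamini-Hochberg) under 0.05. DESeq2 1.42.0 was the other tool, limma 3.58.1 was loaded with edgeR, and tables and figures used Python 3.11.15 and matplotlib 3.10.9. The code was tested on simulated data.

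Named genes are the 12 with the smallest p in each direction, the 6 with the largest fold, up to 4 called or 2 uncalled members of each list, 12 genes always named and the 6 leading genes of each difference between regions. The remaining called genes, Ushbp1, Podxl, Jcad, Slc5a3, Ces1d, Ccl28, Itga1 and Slc39a12 among them, and the genes called at single times were added after their values were seen. Members, lists and rules were chosen with earlier results of these data known. Fits with gene length offsets, without both OB 18 h replicate 1 and OB 0 h replicate 3, and of the difference between the time pairs were chosen after seeing the data.

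Coordinates are from Gencode M21, in which 97.9% of the tested symbols matched 1 gene. The strand setting of the counting is not stated, so counts of overlapping genes are uncertain (Dbp with Sphk2 and Cp with Hps3 on opposite strands, Slc5a3 with Mrps6 and Itga1 with Pelo on the same strand, Mirlet7c-2 within Lncppara). Symbols turned into dates are not named. A floor stands at 3 counts, and counting intervals (exact binomial, 95%) cover counting error only. In BRN, 18 h replicate 1 was left out for its low total, as the authors did.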

Additional observations from a re-analysis of the deposited data

Results flagged for a closer look

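A library was set apart in a group of 6 when its gap to the nearest other value was large beside the spread of the rest. Chance alone would set apart about 1 group in 20, and 18 of 224 groups held such a library.

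Cp in 0 h replicate 1 was 25.7 normalized CPM, the highest of the fed libraries, with the nearest other library at 21.3. Mrc1 in 0 h replicate 2 was 6.15 normalized CPM, the lowest of the fed libraries, with the nearest other library at 8.57. Ttr in 0 h replicate 3 was 342 normalized CPM, the highest of the fed libraries, with the nearest other library at 8.91. Kl in 0 h replicate 3 was 7.33 normalized CPM, the highest of the fed libraries, with the nearest other library at 2.82. S100a8 in 2 h replicate 2 was 16.4 normalized CPM, the highest of the fed libraries, with the nearest other library at 7.42. Kcnj10 in 0 h replicate 3 was 338 normalized CPM, the lowest of the fed libraries, with the nearest other library at 420.5. mt-Co1 in 0 h replicate 2 was 23439 normalized CPM, the highest of the fed libraries, with the nearest other library at 19287. Per2 in 0 h replicate 3 was 55.5 normalized CPM, the highest of the fed libraries, with the nearest other library at 36.2. Adgrf5 in 0 h replicate 3 was 10.3 normalized CPM, the lowest of the fed libraries, with the nearest other library at 16.2. Ccl28 in 2 h replicate 1 was 5.40 normalized CPM, the highest of the fed libraries, with the nearest other library at 4.13. Hrh3 in 22 h replicate 1 was 64.1 normalized CPM, the highest of the late libraries, with the nearest other library at 56.02. Ciart in 18 h replicate 1 was 12.2 normalized CPM, the lowest of the late libraries, with the nearest other library at 15.3. Hspa2 in 18 h replicate 3 was 68.5 normalized CPM, the lowest of the late libraries, with the nearest other library at 75.5. Elovl7 in 18 h replicate 1 was 12.2 normalized CPM, the lowest of the late libraries, with the nearest other library at 14.4. Homer1 in 22 h replicate 3 was 97.6 normalized CPM, the highest of the late libraries, with the nearest other library at 78.6. Acat2 in 18 h replicate 1 was 44.01 normalized CPM, the highest of the late libraries, with the nearest other library at 35.7. Ndufb2 in 18 h replicate 1 was 16.8 normalized CPM, the lowest of the late libraries, with the nearest other library at 21.9. Itga1 in 22 h replicate 2 was 6.91 normalized CPM, the highest of the late libraries, with the nearest other library at 5.99.

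By library, 0 h replicate 3 held 5 of these values, 18 h replicate 1 held 4, 0 h replicate 2 held 2 and 7 other libraries 1 each. No library was removed for them.

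The late change differed between OB and CBL, with an adjusted p under 0.05 for the difference, for 31 genes, among them Kitl (log2 -0.61), Flt1 (log2 -1.45), Ptprb (log2 -1.15), Slco1a4 (log2 -0.87), Adgrf5 (log2 -1.31), Abcb1a (log2 -1.33), Vwf (log2 -1.36) and Podxl (log2 -1.20). In each of these 8 the change was lower in OB than in CBL. The CBL libraries at 0 h are deeper than the others of that region. In OB, but not in CBL, the lane code differs between fed and late libraries. The cause was not tested.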

How the results depend on the processing

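Counts of calls are given here as a share of the genes tested. For late against fed libraries the share went from 0.239% to 2.30% with DESeq2, 0.616% without a filter, 0.842% in a fit of 4 time points, 0.439% with gene length offsets, 0.544% without both OB 18 h replicate 1 and OB 0 h replicate 3, 0.0478% with an absolute log2 fold change over 1, and 0 in the 18-library fit with the lane code as a term. The lane code term rests on the 8 h libraries alone, so that this fit cannot tell the code and the fast apart. Leaving out 1 library gave 0.119% to 0.896%, and all 40 genes kept their sign in every fit that tested them. At 18 h against 0 h it went from 4.11% to 9.97% with DESeq2, 7.78% without a filter, 0.317% with length offsets and 2.31% without both libraries, with 0.0179% to 9.48% on leaving out 1. At 22 h against 2 h it went from 0.0538% to 0.269% with DESeq2 and 0.599% without a filter, with 0% to 0.0836% on leaving out 1. At 2 h against 0 h it went from 0% to 0.00597% with DESeq2 and 0.173% without a filter, with 0% to 0.00597% on leaving out 1. At 22 h against 18 h it went from 0.0179% to 1.83% with DESeq2 and 2.67% without a filter, with 0.00597% to 0.167% on leaving out 1. For the difference between the pairs it went from 0.00597% to 0.161% with DESeq2 and 1.32% without a filter, with 0.00597% to 0.0358% on leaving out 1. Late against 12 h it went from 0% to 3.31% with DESeq2 and 0.960% without a filter, with 0% to 5.29% on leaving out 1. In CBL it went from 0.632% to 3.14% with DESeq2 and 0.644% without a filter, with 0% to 2.92% on leaving out 1. For OB minus CBL it went from 0.201% to 1.37% with DESeq2, 0.395% with RLE factors, 1.56% without a filter, 0.110% without the animal block and 0.453% without the animals of both libraries, with 0% to 0.447% on leaving out 1. In BST it went from 0% to 0.286% with DESeq2 and 0.563% without a filter, with 0% to 0.721% on leaving out 1. For OB minus BST it went from 0% to 0.271% with DESeq2 and 1.37% without a filter, with 0% to 0.0252% on leaving out 1. In BRN it went from 3.45% to 13.9% with DESeq2 and 3.10% without a filter, with 0% to 15.7% on leaving out 1. For OB minus BRN it went from 0% to 5.26% with DESeq2 and 1.18% without a filter, with 0% to 2.55% on leaving out 1. Length offsets and the fits without both libraries were chosen after seeing the data.

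The sign turned for genes that were not called. With the lane code term the log2 fold change was 0.39 for S100a8, -0.0801 for Per1, 0.0874 for Egr1, 0.0436 for Th and -0.20 for Txnip. Without both libraries it was 0.0434 for Per2 and 0.21 for Egr1. On leaving out 1 library, Per1 ranged from -0.0574 to 0.207, Egr1 from -0.221 to 0.198 and Th from -0.109 to 0.000930. Per1 was -0.0292 without 22 h replicate 3. Egr1 was 0.115 without 0 h replicate 2, 0.0515 without 2 h replicate 1, 0.00226 without 2 h replicate 2, 0.00587 without 18 h replicate 3 and 0.00126 without 22 h replicate 1.

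A replicate block gave 0.699% for late against fed (all 40 kept), 11.8% at 18 h against 0 h, 0.968% at 22 h against 18 h, 0.0418% for the difference between pairs, 0.102% for late against 12 h, 0.388% in CBL and 0 in BRN. Equal replicate numbers at different times are different mice. The 18 same-numbered pairs had correlations of -0.221 to 0.477 (median 0.131), 10 over 0.1, the 3 pairs of 18 h with 22 h had 0.477, 0.336 and 0.167, and 7 of 12 samples correlated best with their own number. The cause was not tested.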

Other observations

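Lars2 had 505 to 941 normalized CPM in the fed OB libraries, 1000 to 1881 in the late ones and 1242 to 1499 at 12 h (log2 0.80, adjusted p 0.066). All libraries with lane code L004 at 12 h and later lay above all fed libraries, which carry L003, and the 8 h libraries of both codes lay at 769, 776 and 804.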
